A study of Mus musculus with 8 samples.

Results

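The genes described here are 37 genes of the heat shock response and the unfolded protein response, taken by name as members of these pathways. All 37 were found by symbol among the 29844 gene IDs of the coding count table, and all 37 passed the filter on low counts that left 14059 genes for testing. They fall into 5 arms: 11 cytosolic chaperones and their regulators, 2 subunits of the mitochondrial chaperonin, 5 small heat shock proteins of muscle, 12 genes of the endoplasmic reticulum (ER) stress arm and 7 genes of the ATF4 arm. The libraries were made from total RNA of primary cardiomyocytes, taken at E18.5 from embryos of the B6.Cg-Tg(HIST1H2BB/EGFP)1Pa/J mouse line; the transgene, a fluorescent histone fusion, was carried by both groups. Hearts were dissected and digested to single cells, which then grew for 4 days in medium with serum on polydimethylsiloxane (PDMS), a silicone rubber, until they were confluent and beating. The soft group grew at about 10 kPa and the stiff group at about 150 kPa, with 4 libraries each, and the question of the design is how gene expression differs between these substrates. No other treatment was labelled.

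The heat shock response is driven by HSF1, a transcription factor that is held inactive by chaperones and, when unfolded protein ties these up, binds heat shock elements and raises cytosolic chaperones. The unfolded protein response is the matching system of the ER, where ATF6, IRE1 with its target XBP1, and the kinase PERK sense unfolded protein and raise ER chaperones and degradation factors. PERK and related kinases phosphorylate the initiation factor eIF2, which favours translation of ATF4, a factor that raises amino acid synthesis, transport and tRNA charging genes, so that this arm also responds to amino acid shortage. In heart muscle, small heat shock proteins such as alpha B-crystallin bind sarcomere and cytoskeleton proteins and are abundant without stress.

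The libraries held 27646471 to 34693673 counts in coding genes and 13931 to 15292 genes with at least 1 count. Levels are given as CPM, counts scaled to a common library size by TMM, and are not compared between genes since gene length was not used. The 11 cardiomyocyte markers summed to 23814 to 42413 CPM and the 8 fibroblast markers to 7623 to 14687 CPM, so the cultures held RNA of both cell types. Mural (6 markers), epicardial (5), endothelial (6) and leukocyte (6) markers summed to at most 625, 604, 155 and 46.9 CPM, and 5 erythroid markers were listed at 0 in every library. None of 8 library measures, total counts, genes detected and these 6 sums, passed a test between the substrates (two-sided exact permutation tests, lowest p = 0.286, adjusted p = 0.914; the smallest p that 4 against 4 libraries allow is 0.0286). In bulk RNA, fewer cells of a type and less RNA per cell cannot be told apart. Whether the 4 libraries of a group were separate cultures or animals is not labelled, so p-values measure only the variation among these libraries, part of which may be technical.

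Promoter sequences from RefSeq (GRCm38.p6) show which of these genes hold known motifs of the arms. Windows of 250 bases before the transcription start were at hand for 31 of the 37 genes and were searched on both strands for 3 motifs, each match being a description and not a bound site. The ATF4 composite element, TGATGNAA, was in 3.45% of all 32851 windows and in 3.91% of the 27025 genes with one. Of the 7 genes of the ATF4 arm, 3 held it, namely Asns, Chac1 and Fgf21, and so did Herpud1 of the ER arm. Among the other genes listed for this arm it was in 6 of the 24 with a window: Atf3, Nupr1, Slc7a11, Aars, Gars and Vldlr. The sites are printed for the 4 first named and for the 4 others (Atf3, Nupr1, Slc7a11 and Aars) that were called by library number, as described further on. Each line runs 5′ to 3′ on the gene's strand, with the element in capitals in either orientation, and Slc7a11 holds 2 of them.
Asns: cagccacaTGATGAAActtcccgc
Chac1: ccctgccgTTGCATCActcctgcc
Fgf21: cccccccaTTGCATCAtccgtcca
Herpud1: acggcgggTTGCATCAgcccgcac
Atf3: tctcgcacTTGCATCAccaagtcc
Nupr1: gggccagaTTGCATCAgacagggc
Slc7a11: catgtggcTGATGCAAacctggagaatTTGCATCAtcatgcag
Aars: cttgagcaTTGCATCAgccgagcc
These lie at chr6:7693217-7693240 (minus strand) for Asns, chr2:119351041-119351064 (plus) for Chac1, chr7:45615614-45615637 (minus) for Fgf21 and chr8:94386309-94386332 (plus) for Herpud1. The others lie at chr1:191183428-191183451 (minus) for Atf3, chr7:126625565-126625588 (minus) for Nupr1, chr3:50443645-50443687 (minus) for Slc7a11 and chr8:111033722-111033745 (plus) for Aars. The printed stretch of Asns begins 31 bases before its start, the nearest of these to a start site, and that of Chac1 begins 201 bases before.

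The ER stress response element, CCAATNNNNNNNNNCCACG, is rarer, with 37 of the 32851 windows (0.113%) and 0.13% of genes. It was in 5 of the 11 genes of the ER arm that had a window: Hspa5, Hsp90b1, Calr, Canx and Pdia6. Hsp90b1 held 2 elements in opposite orientations, which is why its line is longer. In the lines below, capitals mark the whole element with the bases between its ends.
Hspa5: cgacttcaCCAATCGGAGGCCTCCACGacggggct
Hsp90b1: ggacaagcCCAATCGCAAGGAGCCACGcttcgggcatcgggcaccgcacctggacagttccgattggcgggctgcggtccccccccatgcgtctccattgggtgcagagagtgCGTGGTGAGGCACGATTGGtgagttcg
Calr: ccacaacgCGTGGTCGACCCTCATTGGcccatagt
Canx: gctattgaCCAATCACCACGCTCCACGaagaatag
Pdia6: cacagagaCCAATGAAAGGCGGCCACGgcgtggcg
These lie at chr2:34772017-34772051 (plus strand) for Hspa5, chr10:86705525-86705664 (minus) for Hsp90b1, chr8:84847067-84847101 (minus) for Calr, chr11:50325792-50325826 (minus) for Canx and chr12:17266483-17266517 (plus) for Pdia6. None of the windows of the other arms' members held this element. Among the other genes listed for the ER arm, it was in 5 of the 26 with a window.

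The heat shock element core, GAANNTTC, is short and was in 6.69% of all windows and in 7.73% of genes. It was in 3 of 7 cytosolic chaperone genes with a window (Hspa1a, Hspa1b and Dnaja1), in both mitochondrial chaperonin genes, in 2 of 4 small heat shock protein genes (Hspb1 and Hspb6) and in Asns. Among the other genes listed with a window, shares were lower in the first 2 of these arms. There it was in 5 of 33 cytosolic and 0 of 6 mitochondrial genes, and in 1 of 2 small heat shock protein genes. The lines of the inducible Hsp70 pair are printed to show how alike the copies are, and that of Hspb1 because it holds 2 cores.
Hspa1a: aactgctgGAAGATTCctggcccc
Hspa1b: aactgctgGAAGATTCctggcccc
Hspb1: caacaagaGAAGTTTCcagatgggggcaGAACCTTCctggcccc
These lie at chr17:34972245-34972268 (minus strand), chr17:34959327-34959350 (minus) and chr5:135887794-135887837 (plus). Over the whole 250 bases, the Hspa1a and Hspa1b promoters were identical at 247 positions (98.8%). Because the genes are near-identical copies too, reads may have been split between them or left out, and their separate counts and their sum are uncertain.

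Stiff and soft substrates gave no call for any of the 37 genes. With edgeR's quasi-likelihood test and Benjamini-Hochberg adjustment over all coding genes, 0 of 37 rose and 0 fell (adjusted p = 0.99997 for each), where the test called 0% of all 14059 coding genes. At an unadjusted p under 0.05 edgeR gave 0 of the 37, against 0.925% of all coding genes. DESeq2 gave 0 of the 37 where 322 coding genes passed, and limma-voom gave 1 where 181 passed, with 0 called by either. In no gene of the 37 were the 4 soft and 4 stiff libraries apart without overlap, against 1.29% of all genes. Estimates were above 0 for 16 genes and below 0 for 21, with a median log2 fold change of -0.02, beside -0.01 over all genes. For 28 of the 37 the unadjusted 95% interval lay within a 2-fold change in either direction, as it did for 9079 of all 14059 genes. A p that misses the threshold does not show that a gene was unchanged, and the intervals give the sizes these libraries leave possible.

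**Figure D1:**
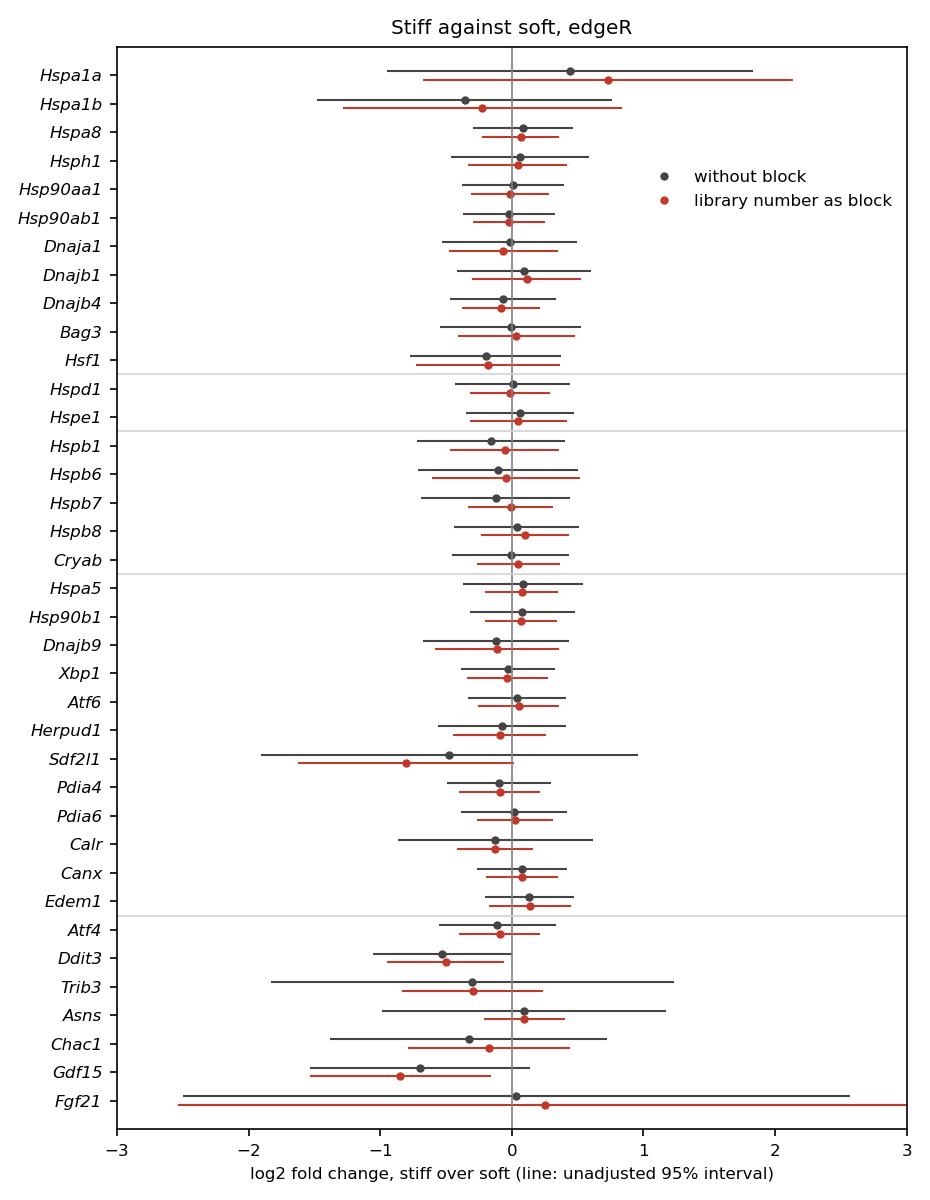
Log2 fold change of stiff over soft for each of the 37 genes (points) with unadjusted 95% intervals (lines), from edgeR without a block (grey) and with the library number as a block (red); pale horizontal lines part the 5 arms and the red Fgf21 interval is cut at the axis limit of 3. All grey intervals reach 0, and most red intervals are shorter than their grey partners.

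Each library also carries a number from 1 to 4, the last digit of the library code in its title, and the digits recur in both groups. What the digit stands for is not stated in the labels. The rest of the code is the same within a substrate and differs between substrates, so whatever it marks cannot be told apart from the substrate. Same-numbered libraries deviated from their group means together (see the processing section), and blocking by the number narrowed the standard error of 34 of the 37 genes and of 9619 of all 14059, the median over the 37 falling from 0.24 to 0.17 on the log2 scale. With that block edgeR called 0 of 37 as well, beside 0% of all coding genes, with 2 at an unadjusted p under 0.05, beside 2.56% of all. Those 2 were Gdf15 and Ddit3, both in the ATF4 arm, and both estimates were lower on stiff. Hsf1 and Ddit3 were lower on stiff in all 4 numbers and no member was higher in all 4, that is 2 of 37 with 1 direction throughout, beside 10% of all coding genes.

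Among the cytosolic chaperones 0 of 11 passed the test, and the median log2 fold change was -0.01, ranging from -0.36 to 0.44. Hsf1, the master regulator, stood at 16.2, 17.3, 14.3 and 23.9 CPM in soft libraries 1 to 4 and at 14.3, 15.2, 13.9 and 19.0 CPM in stiff libraries 1 to 4. Its log2 fold change of -0.20 (SE 0.27, unadjusted p = 0.474) was the one with the smallest p of this arm. The groups overlapped, and the highest value of each was in its library 4. Hsp90ab1, the constitutive cytosolic Hsp90, stood at 1441, 1243, 1204 and 1352 CPM on soft against 1354, 1442, 1283 and 1092 CPM on stiff. It was among the steadiest of the 37, with an estimate of -0.02 (SE 0.17) and a 1.32-fold range over the 8 libraries.

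The inducible Hsp70 genes gave the widest intervals of the cytosolic arm. Hspa1a stood at 0.955, 1.79, 4.66 and 7.75 CPM on soft against 4.27, 9.50, 3.90 and 2.92 CPM on stiff. Hspa1b stood at 8.16, 2.64, 3.38 and 9.73 CPM on soft against 3.49, 4.77, 3.27 and 7.13 CPM on stiff. Hspa1a took between 10.5% and 66.6% of the pair's summed CPM, a share that the near-identical sequences leave uncertain. The sum was 9.77 ± 5.52 CPM on soft against 9.81 ± 3.22 CPM on stiff (SD, n = 4), a difference far smaller than the spread between libraries. The estimates of the single genes, 0.44 (SE 0.66) for Hspa1a and -0.36 (SE 0.53) for Hspa1b, had opposite signs, and with the counts summed the log2 fold change was 0.01.

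In the other cytosolic genes the means of the substrates differed by less than the SD within either one. Hspa8, the constitutive Hsp70, had a mean of 340.4 ± 29.5 CPM on soft against 361 ± 77.6 CPM on stiff (SD, n = 4), and Hsp90aa1, the inducible Hsp90, 323 ± 34.6 and 325 ± 68.0 CPM. Hsph1, an Hsp110 that recharges Hsp70 with nucleotide, had 54.7 ± 14.4 and 57.0 ± 18.6 CPM. The J-domain co-chaperones Dnaja1, Dnajb1 and Dnajb4, which deliver clients to Hsp70, had log2 fold changes of -0.02, 0.09 and -0.07. Bag3, the Hsp70 partner that works with Hspb8 in autophagy of damaged filamin at the Z-disc, stood at 35.1 ± 11.7 CPM on soft against 34.9 ± 5.65 CPM on stiff (SD, n = 4; log2 fold change -0.01, SE 0.25).

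The mitochondrial chaperonin consists of the Hspd1 barrel and its Hspe1 lid, whose genes lie head to head on chromosome 1. Hspd1 stood at 183, 179, 241 and 260.1 CPM on soft against 163, 209, 192 and 302 CPM on stiff. Hspe1 stood at 52.8, 61.3, 50.7 and 59.9 CPM on soft against 44.3, 72.5, 60.2 and 58.0 CPM on stiff. Neither passed the test, with log2 fold changes of 0.01 (SE 0.21) and 0.06 (SE 0.19). The RefSeq models overlap at their starts (Hspd1 ends at 55088243 and Hspe1 starts at 55088148), and since strand handling is not given in the sources used here, reads of that stretch cannot be assigned to either.

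Of the 5 small heat shock proteins of muscle, 0 passed the test, and the median log2 fold change was -0.11. Hspb7, the cardiovascular small heat shock protein that binds filamin, stood at 301, 248, 344 and 692 CPM on soft against 382, 309.7, 368 and 396 CPM on stiff. Its highest value was in soft library 4, and the other 7 libraries lay between 248 and 396 CPM. Hspb1, an actin-associated family member with the smallest p of this arm, stood at 38.2, 32.3, 42.0 and 84.7 CPM on soft against 44.8, 38.1, 48.0 and 46.0 CPM on stiff (log2 fold change -0.16, SE 0.27, unadjusted p = 0.562). Again soft library 4 stood above the rest. Cryab (alpha B-crystallin), the desmin chaperone, and Hspb8, the Bag3 partner, were shown by library after their values were seen. Cryab stood at 215, 213, 200.1 and 397 CPM on soft against 276, 262, 225 and 255 CPM on stiff.

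Hspb8 stood at 96.6, 85.4, 83.6 and 174 CPM on soft against 113, 95.9, 114 and 128 CPM on stiff. Hspb6, the family member phosphorylated by cyclic nucleotide signalling, ranged from 12.5 CPM in soft library 1 to 28.1 CPM in soft library 4, with 15.9 to 19.2 CPM on stiff. All 5 were thus highest in soft library 4. That library also had the highest cardiomyocyte marker sum, 42413 CPM, followed by stiff library 4 with 35819 CPM, while the other 6 libraries had 23814 to 29910 CPM. The part of these markers in the small heat shock protein values was not tested. Without soft library 4 the median log2 fold change of this arm turned from -0.11 to 0.29, and 0 of the 5 were called with or without it.

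Within the ER stress arm 0 of 12 passed the test, and the median log2 fold change was -0.01, from -0.47 to 0.13. Xbp1, the factor spliced by IRE1, stood at 140.5, 153, 147 and 181 CPM on soft against 120.4, 162, 164 and 162 CPM on stiff. These counts cover the gene as a whole and hold no measure of splicing. Atf6, the membrane-bound factor that is cleaved on stress, stood at 187, 199, 168 and 129.8 CPM on soft against 183, 197, 158 and 164 CPM on stiff. Neither factor differed beyond its spread, with log2 fold changes of -0.03 (SE 0.17) and 0.04 (SE 0.17).

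The ER chaperones and folding enzymes came next. Hsp90b1, the ER Hsp90 known as GRP94, stood at 1027, 1106, 1423 and 1156 CPM on soft against 903, 1224, 1392 and 1465 CPM on stiff. Hspa5, the ER Hsp70 known as BiP and the usual readout of this arm, stood at 674, 609.7, 840.2 and 1023 CPM on soft against 571, 763, 922 and 1081 CPM on stiff. In both groups the 2 highest Hspa5 values were in libraries 3 and 4, so that the spread within a substrate was wider than the difference between substrates (log2 fold change 0.08, SE 0.22). Calr, the lectin chaperone calreticulin that also buffers calcium, stood at 304, 274, 575 and 644 CPM on soft against 236.5, 293, 572 and 546 CPM on stiff. Its libraries 3 and 4 again stood above 1 and 2 in both groups, and like Hspa5 it was shown by library after its values were seen. Canx, its membrane-bound relative calnexin, kept within a 1.26-fold range over the 8 libraries, the smallest of the 37. The protein disulfide isomerases Pdia4 and Pdia6 had log2 fold changes of -0.10 (SE 0.19) and 0.02 (SE 0.19).

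Sdf2l1, an ER co-factor of BiP with few counts, was the most variable gene of this arm and was shown by library after its values were seen. It stood at 6.72, 3.17, 12.0 and 14.9 CPM on soft against 2.82, 1.09, 12.1 and 10.5 CPM on stiff, a log2 fold change of -0.47 (SE 0.66). Among genes of ER-associated degradation, Edem1, which removes misfolded glycoproteins, had the smallest p of the arm. It stood at 141, 154, 147 and 118 CPM on soft against 162, 144, 161 and 147 CPM on stiff (log2 fold change 0.13, SE 0.16, unadjusted p = 0.418). Herpud1, a scaffold of the same machinery, had 74.3 ± 17.6 and 70.6 ± 22.3 CPM (SD, n = 4). Dnajb9, the J-domain protein that keeps IRE1 off, had 37.4 ± 11.3 and 34.5 ± 9.53 CPM (SD, n = 4).

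The ATF4 arm had the lowest median of the 5 arms, a log2 fold change of -0.30 over 7 genes with a range from -0.70 to 0.09, and 0 of 7 passed the test. Its spread among libraries of 1 substrate was also the widest: the median SD of log2 CPM was 0.83, beside 0.37 for the cytosolic arm, 0.37 for the small heat shock proteins, 0.28 for the ER arm and 0.41 over all genes. Atf4 itself stood at 133, 133, 151 and 232 CPM on soft against 133, 121, 154 and 194 CPM on stiff (log2 fold change -0.11, SE 0.21). Since ATF4 is set mainly by translation, these mRNA levels do not measure the protein. Without soft library 4 the median of the arm turned to 0.33, with 0 genes called. Some markers of other cell types had estimates on the same side. All 6 mural markers were below 0 (median log2 fold change -0.33, 0 of 6 called, Notch3 with an unadjusted p of 0.0391), although Cspg4 turned from -0.04 to 0.05 with the number as a block. The collagen gene Col1a1, a fibroblast marker, was lower on stiff at all 4 numbers (with the block, log2 fold change -0.43, unadjusted p = 0.00374, edgeR adjusted p = 1). Of the 8 fibroblast markers, however, 5 had estimates below 0 and 3 above, with a median log2 fold change of -0.02. Estimates were also below 0 for 5 of 6 leukocyte, 7 of 11 cardiomyocyte, 3 of 5 epicardial and 2 of 6 endothelial markers. Over all coding genes, 7300 of 14059 were below 0. The part of these markers in the ATF4 arm values was not tested.

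Ddit3, which encodes the pro-apoptotic factor CHOP, stood at 23.7, 35.4, 45.6 and 44.1 CPM on soft against 20.2, 23.8, 30.7 and 28.5 CPM on stiff. The groups overlapped, since soft library 1 lay below 3 stiff libraries, but within each number the stiff library was the lower one. The log2 fold change was -0.53 (SE 0.25, unadjusted p = 0.0504, edgeR adjusted p = 0.99997), and with the number as a block -0.50 (SE 0.22, unadjusted p = 0.0281, adjusted p = 1). Gdf15, a secreted stress factor of the heart, was shown by library after its values were seen, at 16.0, 13.0, 10.5 and 17.7 CPM on soft against 12.4, 13.4, 3.93 and 5.52 CPM on stiff. It was lower on stiff in numbers 1, 3 and 4 and slightly higher in number 2, with the lowest levels in stiff libraries 3 and 4. Its log2 fold change was -0.70 (SE 0.40, unadjusted p = 0.0971) and, with the block, -0.85 (SE 0.34, unadjusted p = 0.0166, adjusted p = 1). Both genes thus failed the correction over all genes.

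In Asns, Trib3 and Chac1 the libraries lay further apart by number than by substrate. Asns, the asparagine synthetase gene, had the highest mean CPM of the arm and stood at 100.1, 86.5, 244 and 259.8 CPM on soft against 88.6, 117, 229 and 303 CPM on stiff. Its 4 libraries of numbers 3 and 4 all lay above its 4 libraries of numbers 1 and 2, on both substrates. Trib3, a pseudokinase that restrains ATF4 and CHOP, stood at 10.6, 7.60, 22.8 and 48.7 CPM on soft against 9.20, 4.90, 27.9 and 30.9 CPM on stiff. Chac1, which degrades glutathione, stood at 9.38, 5.73, 14.3 and 32.0 CPM on soft against 9.84, 5.45, 17.7 and 15.9 CPM on stiff. In both, as in Asns, every library of numbers 3 and 4 lay above every library of numbers 1 and 2. The values of Trib3, Chac1 and Fgf21 were shown by library after they were seen. Fgf21, a secreted metabolic hormone, was barely detected, from 0.0329 CPM (1 count) in soft library 1 to 3.15 CPM in stiff library 4. Blocking by number cut the standard error of the Asns log2 fold change from 0.48 to 0.15, around estimates of 0.09 and 0.10.

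**Figure D2:**
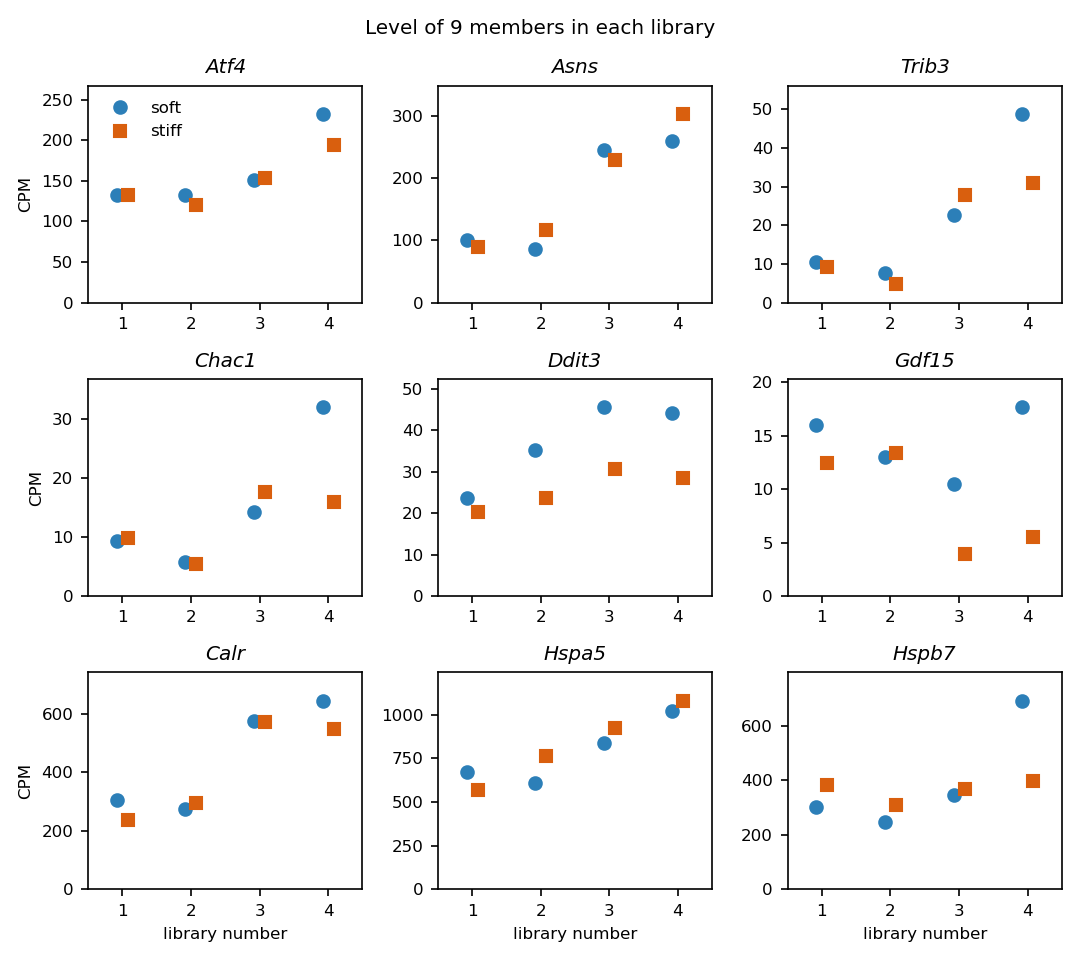
CPM (linear axes from 0) of 9 of the 37 genes in each library, by library number, with soft libraries as circles and stiff libraries as squares. In Asns, Trib3 and Calr all libraries of numbers 3 and 4 lie above those of numbers 1 and 2, in Ddit3 the stiff library is lower at every number, and in Hspb7 soft library 4 stands alone at 692 CPM.

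The library number was therefore tested as a term of 3 degrees of freedom beside the substrate, a test chosen after the data were seen. The genes described here had also been chosen with earlier results of these data known. edgeR with Benjamini-Hochberg adjustment over all genes called 8 of the 37 genes, or 21.6%, beside 7.61% of all 14059 coding genes (1070, or 1697 without stiff library 4). By arm these were 4 of 7 in the ATF4 arm, 3 of 12 in the ER arm, 1 of 5 small heat shock proteins and 0 of 11 cytosolic and 0 of 2 mitochondrial chaperones. All 8 had their highest mean in number 4, and the lowest in number 1 for 3 and number 2 for 5. Gdf15, in the ATF4 arm but not called (edgeR adjusted p = 0.368), ran otherwise. Its means were 14.2, 13.2, 7.21 and 11.6 CPM in numbers 1 to 4. Of all 1070 genes called, 481 were highest in number 4, so this number was the most frequent top over the whole table too. With 2 libraries a number, 1 from each substrate, the result describes these libraries, and what the numbers share cannot be named.

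Asns had the smallest p, with means of 94.3, 101.7, 237 and 281 CPM in numbers 1 to 4, a 2.98-fold range (edgeR adjusted p = 6.36e-08). Trib3 had means of 9.90, 6.25, 25.3 and 39.8 CPM, a 6.30-fold range (edgeR adjusted p = 2.01e-06). Calr, in the ER arm, had means of 270.2, 284, 573 and 595 CPM, a 2.21-fold range (edgeR adjusted p = 4.49e-06). Sdf2l1 ranged over 6.50-fold (edgeR adjusted p = 0.00253), and these 4 calls held in all 15 alternative settings. Chac1 ranged over 4.01-fold (edgeR adjusted p = 0.00406), Hspb7 over 1.89-fold (0.0179), Hspa5 over 1.70-fold (0.0217) and Atf4 over 1.67-fold (0.0484).

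Those last 4 calls rested in part on single libraries, and that of Atf4 also on the processing. With every library kept, Atf4 was not called under RLE scaling (edgeR adjusted p = 0.062) or with a minimum of 1 CPM in 4 libraries (0.0501). Without soft library 4 the adjusted p rose to 0.133 for Chac1, 0.394 for Hspb7 and 0.235 for Atf4. Hspb7 was also not called without soft library 2 (0.0841), and Hspa5 not without soft library 2 (0.0635), soft library 3 (0.0682), stiff library 1 (0.125) or stiff library 3 (0.0981). Atf4 was called in 6 of 15 alternatives, and leaving out any library other than stiff library 4 lifted its adjusted p to between 0.0735 and 0.235. Without stiff library 4, 13 of the 37 were called, the added ones being Hspb1 (0.00864), Hspb8 (0.004), Cryab (0.00113), Hsp90b1 (0.0375) and Pdia6 (0.0317); in that setting number 4 was soft library 4 alone. Without soft library 2, 5 of the 37 were called. At the other end, Canx (adjusted p = 0.962), Hsp90ab1 (0.906) and Edem1 (0.921) gave no call, with number means within a 1.17-fold range.

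**Figure D3:**
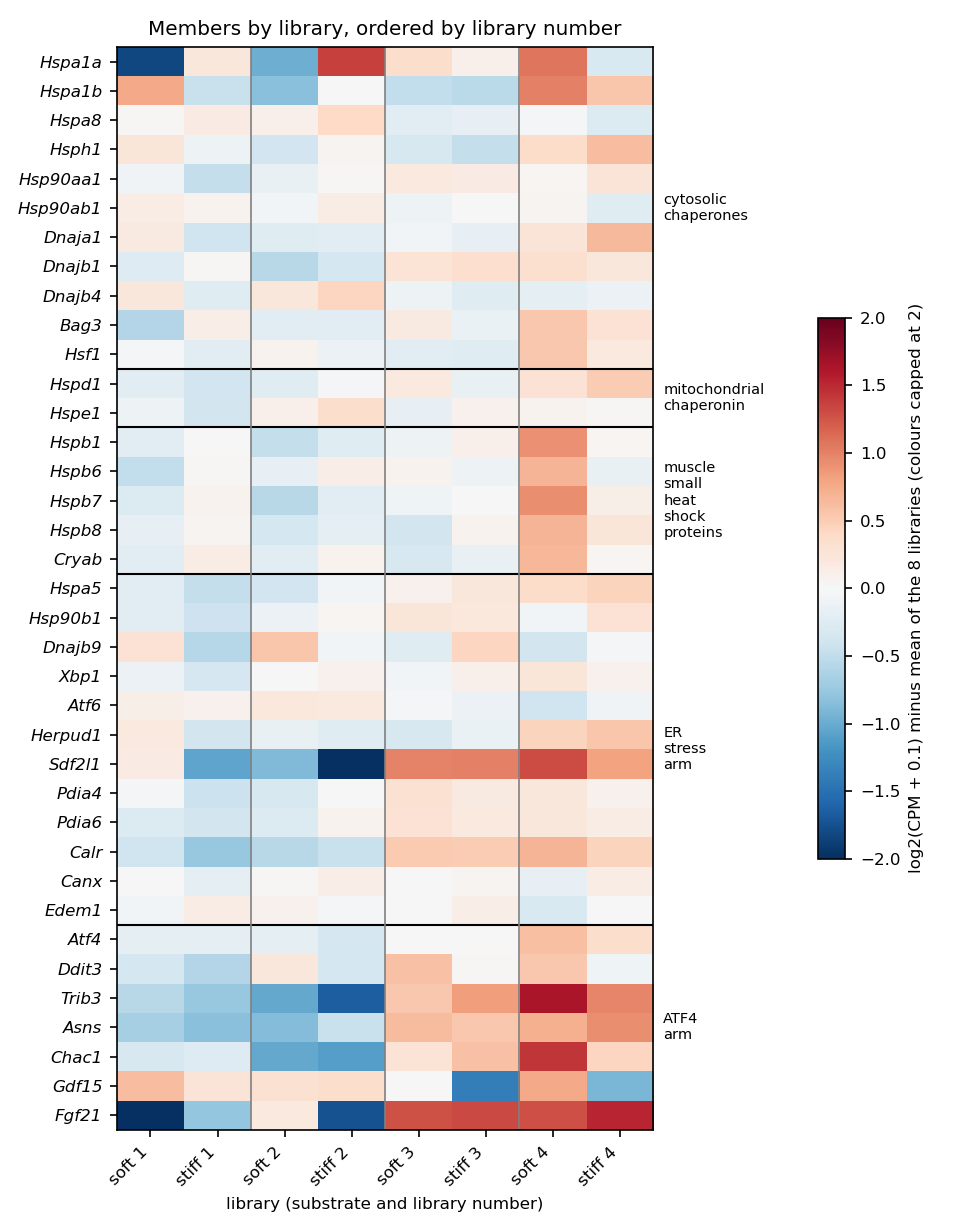
Log2(CPM + 0.1) of each of the 37 genes minus its mean over the 8 libraries, with libraries in columns ordered by number and colours capped at 2 in either direction. Numbers 3 and 4 are red for Trib3, Asns, Chac1 and Calr, and soft library 4 is red for all 5 small heat shock proteins.

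Further genes of the same pathways were listed from textbook roles, with earlier results of these data known. Of 109 listed, 105 were in the table and 103 were tested; Hspa14, Ero1a, Ero1b and Eif2ak1 were not analysed here, and Hspb9 and Derl3 did not pass the filter. Between substrates 0 of 103 passed the test, and 1, Creld2, had an unadjusted p under 0.05, beside 0.925% of all coding genes. With the number as a block 2, Creld2 and Creb3, had an unadjusted p under 0.05, beside 2.56% of all. Only in Syvn1 did every soft value (10.4 to 14.9 CPM) exceed every stiff value (6.09 to 9.99 CPM). Groups were fully apart in 1.29% of all coding genes. Syvn1 was named after its values were seen (edgeR unadjusted p = 0.0783). Creld2, an ER stress gene, stood at 12.9, 13.2, 17.9 and 32.3 CPM on soft against 5.89, 7.83, 7.83 and 16.4 CPM on stiff. It was lower on stiff at every number although the groups overlapped (log2 fold change -1.01, SE 0.39, unadjusted p = 0.0185, edgeR adjusted p = 0.99997; with the block, unadjusted p = 0.00112 and adjusted p = 1). Creb3, an ER-bound transcription factor, had an estimate of -0.37 (SE 0.19), and Serpinh1, the collagen chaperone HSP47, one of -0.34 (SE 0.27). Eif2ak2 (PKR) at 0.35 (SE 0.19), Ddit4 at -0.39 (SE 0.38) and Eprs at 0.04 (SE 0.18) represented the ATF4 arm. For the cytosolic arm Fkbp5 was at -0.29 (SE 0.26), Dnaja4 at 0.16 (SE 0.18) and Tcp1 at 0.08 (SE 0.16), for the mitochondria Trap1 at -0.12 (SE 0.17), Lonp1 at -0.16 (SE 0.25) and Hspa9 at 0.07 (SE 0.20), and for the small heat shock proteins Hspb3 at 0.40 (SE 0.65) and Hspb2 at -0.14 (SE 0.30).

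By library number 28 of these 103 were called, or 27.2%, beside 7.61% of all coding genes. Because the list was made with earlier results of these data known, this share is not an independent check on the genes described first. Of the 28, 17 were among the 29 of the ATF4 arm, 6 among 29 of the ER arm, 4 among 35 cytosolic chaperones, 1 among 8 mitochondrial and 0 among 2 small heat shock proteins. Of the 17 in the ATF4 arm, 16 were highest in number 4 and 1, Stc2, in number 3. Slc7a5, the light chain of the large neutral amino acid carrier, had means of 33.6, 33.2, 72.3 and 145.7 CPM in numbers 1 to 4, a 4.38-fold range (edgeR adjusted p = 2.35e-09). Atf3, a stress-induced factor, stood at 11.0, 9.08, 13.8 and 64.3 CPM on soft against 17.2, 9.91, 8.97 and 50.5 CPM on stiff (5.98-fold, 1.56e-07). In Slc7a5 numbers 3 and 4 both lay above 1 and 2, whereas in Atf3 number 4 stood alone. These genes were named by the number test, and so after their values were seen.

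The same 17 covered several steps of the pathway. Shmt2, Mthfd2, Psat1 and Phgdh act in serine and one-carbon metabolism, Aars, Wars and Nars charge tRNAs, Slc7a11, Slc7a5 and Slc3a2 carry amino acids, and Cth makes cysteine. Atf3, Atf5 and Nupr1 are regulators, Ddit4 restrains mTORC1, Ppp1r15a (GADD34) reverses eIF2 phosphorylation, and Stc2 is a secreted glycoprotein. Eif2ak3, which encodes PERK, gave no call (adjusted p = 0.759), and neither did the ATF4 element genes Gars and Vldlr. In the ER arm the 6 called were Serpinh1, Dnajb11, Manf, Hyou1, Wfs1 and Atf6b, all highest in number 4, among them the BiP partners Dnajb11 and Hyou1. In the cytosolic arm they were Unc45b, the myosin chaperone of striated muscle, Ahsa1, Cct3 and Hspa4l. Hspa4l, an Hsp110, went the other way, with means of 235, 258, 184 and 138 CPM in numbers 1 to 4. The mitochondrial gene called was the protease gene Lonp1. Of the 28, 20 were called in all alternatives and 8 were lost when 1 library was left out. Without soft library 4 the edgeR adjusted p rose to 0.511 for Ppp1r15a, 0.252 for Atf6b, 0.145 for Ahsa1, 0.126 for Wfs1, 0.0647 for Cct3 and 0.0646 for Hspa4l. Without soft library 2 it rose to 0.232 for Cct3, 0.115 for Hspa4l, 0.0889 for Wfs1, 0.0818 for Ppp1r15a and 0.0564 for Lonp1. Stc2 was not called without soft library 1 (0.0903), Wfs1 (0.175) and Atf6b (0.0573) not without stiff library 2, and Cct3 also not without soft library 3 (0.0507), stiff library 1 (0.0514) or stiff library 3 (0.0664).

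**Figure D4:**
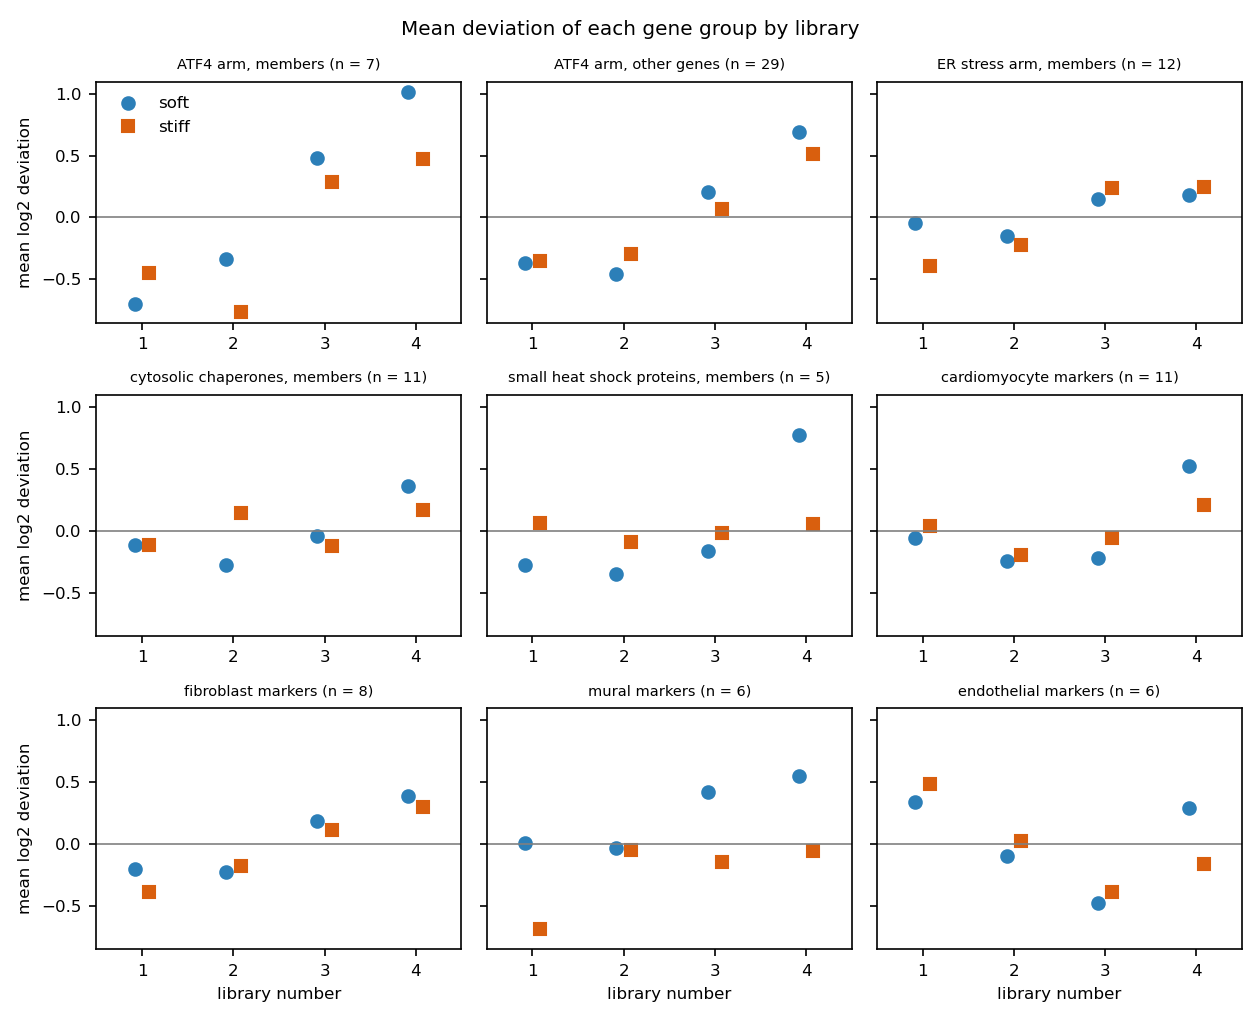
Mean log2 deviation of each gene group (every gene centred on its own 8-library mean of log2 CPM) by library number, with soft libraries as circles and stiff libraries as squares. The ATF4 arm genes described first (top left) run from -0.76 to 1.01 and the other ATF4 arm genes (top centre) from -0.46 to 0.69, with numbers 3 and 4 above 1 and 2 in both, and fibroblast markers are also higher there.

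Other measures moved with the library number as well. Fibroblast markers summed to 7623 to 9098 CPM in the libraries of numbers 1 and 2 and to 11353 to 14687 CPM in those of numbers 3 and 4, and 7 of the 8 were called by number. The sum is made up mostly of Col1a1, Col1a2, Col3a1 and Postn, whereas Pdgfra, also called, went the other way, with means of 296, 276, 147 and 232 CPM in numbers 1 to 4 (edgeR adjusted p = 0.00251). Tcf21, at 14.8, 13.3, 18.2 and 32.4 CPM, was high mainly in number 4. Cardiomyocyte marker sums had means of 27633, 24578, 24979 and 39116 CPM in numbers 1 to 4, and 9 of the 11 were called. Myh7, one of the 9, was lowest in number 4, with means of 1465, 1465, 1905 and 641 CPM (edgeR adjusted p = 1.9e-05), while Nppa (0.761) and Ryr2 (0.0642) were not called. Mural marker sums had means of 363, 364, 527 and 524 CPM and endothelial ones 153, 125, 79.0 and 128 CPM, with 2 of 6 called in each. Of the leukocyte (6) and epicardial (5) markers, 0 were called. Counts per library had means of 29019124, 29602272, 30029552 and 32697357 in numbers 1 to 4. Asns, Trib3 and Calr were thus higher in the numbers with the higher fibroblast marker sums, and the small heat shock proteins were highest in the library with the highest cardiomyocyte marker sum. Among the stiff libraries, library 4 had the highest cardiomyocyte marker sum. It was highest there for Hspb7 and Hspb8 but not for Hspb1, Hspb6 or Cryab. The part of cell mixture or depth in these values was not tested.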

How the data were processed

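The authors deposited raw counts, whole numbers of reads for each gene in each library; the coding table was used, and the noncoding table was not. The submitters' processing notes list the build GRCm38 and, without roles, edgeR, DESeq2, Cufflinks, HTSeq 0.6.1, TopHat, TopHat2 2.0.14, Bowtie2 and FastQC 0.11.2; neither strand handling, nor filters, nor the annotation release is given in the sources used here. All 8 columns of the table matched a title. Groups follow the substrate label, and the library number is the last digit of the code in the title.

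The tests were run in R 4.3.3, mainly with edgeR 4.0.16 (filterByExpr with minimum count 10 and total 15, TMM, robust quasi-likelihood F test of the substrate alone, Benjamini-Hochberg adjustment over 14059 genes, threshold 0.05), DESeq2 1.42.0 and limma 3.58.1. The library number test, also with edgeR, has substrate and number as terms and was chosen after the data were seen. The scripts were tested on simulated data, which for the substrate test held no effect of library number. That check therefore does not show how often the substrate test would find a difference in these libraries. The members and the gene lists were chosen with earlier results of these data known. Per-library values were given, by rule, for the regulators, the inducible Hsp70 pair and the genes with the smallest p and highest mean CPM of each arm; of the other pathway genes, called ones and then up to 2 with the smallest p and 1 with the highest mean of each arm were named.

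Deviations of same-numbered libraries from their group means correlated at 0.104, 0.181, 0.128 and 0.305 for numbers 1 to 4 over 14059 genes, all above the limit of 0.1 set for pairing. Soft library 1 with stiff library 2 (0.112) and soft library 2 with stiff library 1 (0.13) passed that limit too. The limit therefore does not tell numbers 1 and 2 apart. The numbers were taken to pair the samples from the title codes and these correlations alone. The blocked values are given beside the unblocked ones. Alternatives were other scalings (RLE, upper quartile), no filter or a minimum of 1 CPM in 4 libraries, limma-voom, DESeq2, the replicate block, each library left out, and the Hsp70 pair summed. For the library number test, a fit without the substrate term took the place of the replicate block. The counts carry no molecular identifiers that the labels mention, so reads are not independent molecules. Promoters and positions are those of RefSeq on GRCm38.p6.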

Additional observations from a re-analysis of the deposited data

Results flagged for a closer look

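In 5 of the 74 groups of 4 libraries looked at (37 genes on each substrate), 1 library stood apart from the other 3, where chance gives about 1 in 20 groups. On soft, library 4 stood apart for the small heat shock protein genes Cryab, at 397 CPM, and Hspb8, at 174 CPM, both high. On stiff, Dnaja1 was high in library 4 at 67.0 CPM, Dnajb4 was high in library 2 at 383 CPM, and Xbp1 was low in library 1 at 120 CPM.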

How the results depend on the processing

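Stiff against soft called 0 of the 37 genes, 0 of the 103 other pathway genes and 0 coding genes in every setting run, with 122 to 473 coding genes at an unadjusted p under 0.05. The replicate block, which pairs same-numbered libraries, changed no call: 0 of the 37 and 0 coding genes were called, with 360 coding genes unadjusted (no block: 130). Of the 37 estimates, 31 changed sign in at least 1 setting, Hspa1a with the largest main estimate among them (0.44). Outside leave-one-out runs these were Bag3 (0.0032 with RLE, 0.00362 with DESeq2, 0.0416 with limma-voom, 0.0349 with the replicate block), Cryab (0.0025, 0.00287, 0.0467 and 0.0502 in the same order), Hspd1 (-0.00333 with upper quartile scaling, -0.0118 with limma-voom, -0.0134 with the block), Hsp90aa1 (-0.0118 with limma-voom, -0.0124 with the block) and Hspa1b (0.00508 when summed with Hspa1a). Leaving out 1 library at a time, log2 fold changes ran over these ranges: Hsp90aa1 (-0.0844 to 0.14), Hsp90ab1 (-0.0735 to 0.0529), Dnaja1 (-0.30 to 0.10), Hspd1 (-0.20 to 0.12), Hspb8 (-0.0749 to 0.36), Pdia6 (-0.0706 to 0.12), Asns (-0.25 to 0.37), Fgf21 (-0.47 to 0.40), Hsph1 (-0.17 to 0.21), Dnajb1 (-0.0484 to 0.23), Dnajb4 (-0.25 to 0.00495), Hspa5 (-0.0663 to 0.24), Dnajb9 (-0.30 to 0.0733), Bag3 (-0.17 to 0.21), Calr (-0.32 to 0.11), Hspb1 (-0.31 to 0.24), Hspb6 (-0.26 to 0.17), Hspb7 (-0.29 to 0.30), Cryab (-0.11 to 0.29), Xbp1 (-0.0738 to 0.068), Atf6 (-0.0662 to 0.12), Herpud1 (-0.32 to 0.0778), Atf4 (-0.26 to 0.12), Trib3 (-0.68 to 0.43), Chac1 (-0.60 to 0.33), Pdia4 (-0.20 to 0.0152), Hspa1a (-0.0368 to 1.07), Hspa8 (-0.0462 to 0.18), Hspe1 (-0.0495 to 0.18), Hsp90b1 (-0.00766 to 0.21). Hsf1, Sdf2l1, Canx, Edem1, Ddit3 and Gdf15 kept their sign in every setting.

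Medians by arm ran, leaving out 1 library, from -0.235 to 0.288 for the small heat shock proteins (highest without soft library 4) and from -0.548 to 0.329 for the ATF4 arm. By library number the count of the 37 ran from 5 (without soft library 2) to 13 (without stiff library 4) and that of all coding genes from 822 to 1697 in the same runs, in which 1 number is a lone library assumed to vary like the others. In the settings that left out no library, 7 or 8 of the 37 and 972 to 1363 coding genes were called. The cause of these shifts was not tested. The median SE of 0.24 on the log2 scale limits which differences between substrates 4 libraries a group can show. Fgf21 had as few as 1 count in a library.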
